A study of Mus musculus with 10 samples.

Results

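Autophagy wraps part of the cytoplasm in a double membrane, the autophagosome, and delivers it to the lysosome for breakdown. A kinase complex starts the process, a lipid kinase complex marks the site, lipid-moving proteins build the membrane, and a pair of ubiquitin-like conjugation systems attach ATG8 proteins to it. ATG8 proteins hold cargo receptors and help the finished vesicle reach the lysosome, and some of the same proteins act in LC3-associated phagocytosis, in which phagocytes such as microglia attach ATG8 proteins to vesicles that hold engulfed material.

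The transcripts of 40 genes of this machinery were followed, out of the 56748 genes of the count table, each matched by its symbol. They were grouped by step into the ULK complex (5 genes), the PI3K complex (7), lipid transfer (5), conjugation (10), ATG8 proteins (5), receptors (6) and tethers (2). All 40 passed the filter on low counts that left 18969 genes to be tested.

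The libraries were 5 samples of microglia, sorted from brain as CD11b-positive cells at 400000 cells per sample, and 5 samples of hemi brains, called bulk brain below. Microglia are the resident macrophages of the brain, and CD11b is a surface protein of myeloid cells that the sort selects as a whole. All samples of both groups came from young male C57BL/6 mice with no treatment or altered allele named, and carried the same batch value, 1. The series title concerns synaptic proteins that build up in microglia with age, and no aged samples were analysed here. Nothing in the labels ties the samples of a group to separate animals, and p-values therefore reflect a spread among samples that may be technical only.

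Total counts ran from 25087489 to 28514509 per library in microglia and from 25845049 to 34709215 in bulk brain. The summed level of 12 microglia markers was 37055 to 38462 CPM (counts as a share of the library's scaled total, times 1000000) in microglia and 264 to 311 CPM in bulk brain. Markers of neurons summed to 11.3 to 33.9 CPM in microglia against 7302 to 8936 CPM in bulk brain, and those of astrocytes to 135 to 170.3 against 3757 to 4647 CPM. Slc1a3 alone stood at 127 to 135 CPM of the astrocyte sum in microglia. Oligodendrocyte markers summed to 144 to 246 CPM in microglia against 5858 to 7887 CPM in bulk brain, and endothelial markers to 78.1 to 113 CPM against 231 to 285 CPM. Of the 8 endothelial markers, 6 were lower in microglia. Pecam1 was higher (41.7 against 18.3 CPM on average), and Kdr was not past the threshold used below (14.4 against 17.9 CPM). Markers of border-associated macrophages, which the sort does not separate from microglia, summed to 478 to 618 CPM against 9.9 to 11.9 CPM. Those of neutrophils, monocytes and lymphocytes summed to 31.8 to 42.7 CPM in microglia against 0.991 to 1.49 CPM. A list of 12 genes known to respond to tissue dissociation summed to 22411 to 27092 CPM in microglia against 294 to 442 CPM in bulk brain, all 12 being higher, and its part in the results was not tested. In no list was a marker at 0 in all microglia libraries. Bulk brain replicates 1 and 2 stood apart from replicates 3 to 5. Results against each set are given below for a part of the genes only. The size of other differences also changed with the set used.

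Most of the machinery differed little between microglia and whole tissue, while the ATG8 genes Gabarapl1, Map1lc3a and Gabarapl2 and the receptor gene Optn were at least 2.92-fold lower in microglia. Of the 40 genes, 8 were higher in microglia (20.0%) and 14 lower (35.0%) by edgeR's quasi-likelihood test, with the adjusted p below 0.05. Among all 18969 genes tested, 37.2% were higher and 43.9% lower. These shares are also the reference for each step below, and no step was tested as a set. With median-of-ratios size factors or library size alone in place of the TMM scaling, the counts were 6 higher and 18 lower in both cases. The counts over all 18969 genes moved as well. They were 7048 higher and 8320 lower with TMM, 6449 and 8853 with median-of-ratios size factors, and 6394 and 8883 with library size alone. With bulk brain replicates 3 to 5 as the only reference, 10 were higher (25%, against 37.9% of the genes tested there) and 22 lower (55%, against 47.4%), so that the share lower was above that of all genes and not below it. Against replicates 1 and 2 alone, 13 were higher (32.5%, against 37.1%) and 17 lower (42.5%, against 44.9%). The other scalings also moved the median log2 difference of all genes, which was -0.14, to -0.31 and -0.33. A difference of at least 2-fold was met by 4 of the higher genes and 8 of the lower ones, against 27.8% and 36.8% of all genes. The values of the 5 libraries of each group did not overlap for 8 genes on the higher side and 12 on the lower side, where the shares over all genes were 34.2% and 40.5%. The median size of the log2 difference was 0.36 over the 40 genes, or 1.29-fold, against 1.69, or 3.23-fold, over all genes tested. The other 18 genes had log2 differences of -0.20 to 0.45 (edgeR adjusted p of 0.093 to 0.76), and 16 of them stayed under 0.25 in size.

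By level per kilobase of gene length, the lowest of them stood at the 39.4th percentile of tested genes in microglia and at the 41.4th in bulk brain, and the median gene at the 73.2nd and the 76.3rd. The replicates of microglia were closer to each other than those of bulk brain, with a median coefficient of variation over the genes of 6.0% (range 2.47% to 17.2%) against 15.1% (1.5% to 60.0%). The bulk brain figures include the distance between replicates 1 and 2 and replicates 3 to 5. Wdfy3, for example, had 53.4%, with replicates 1 and 2 at 134 and 102 CPM and replicates 3 to 5 at 386 to 405 CPM. In bulk tissue, fewer cells of a type and less RNA per cell cannot be told apart.

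**Figure D1:**
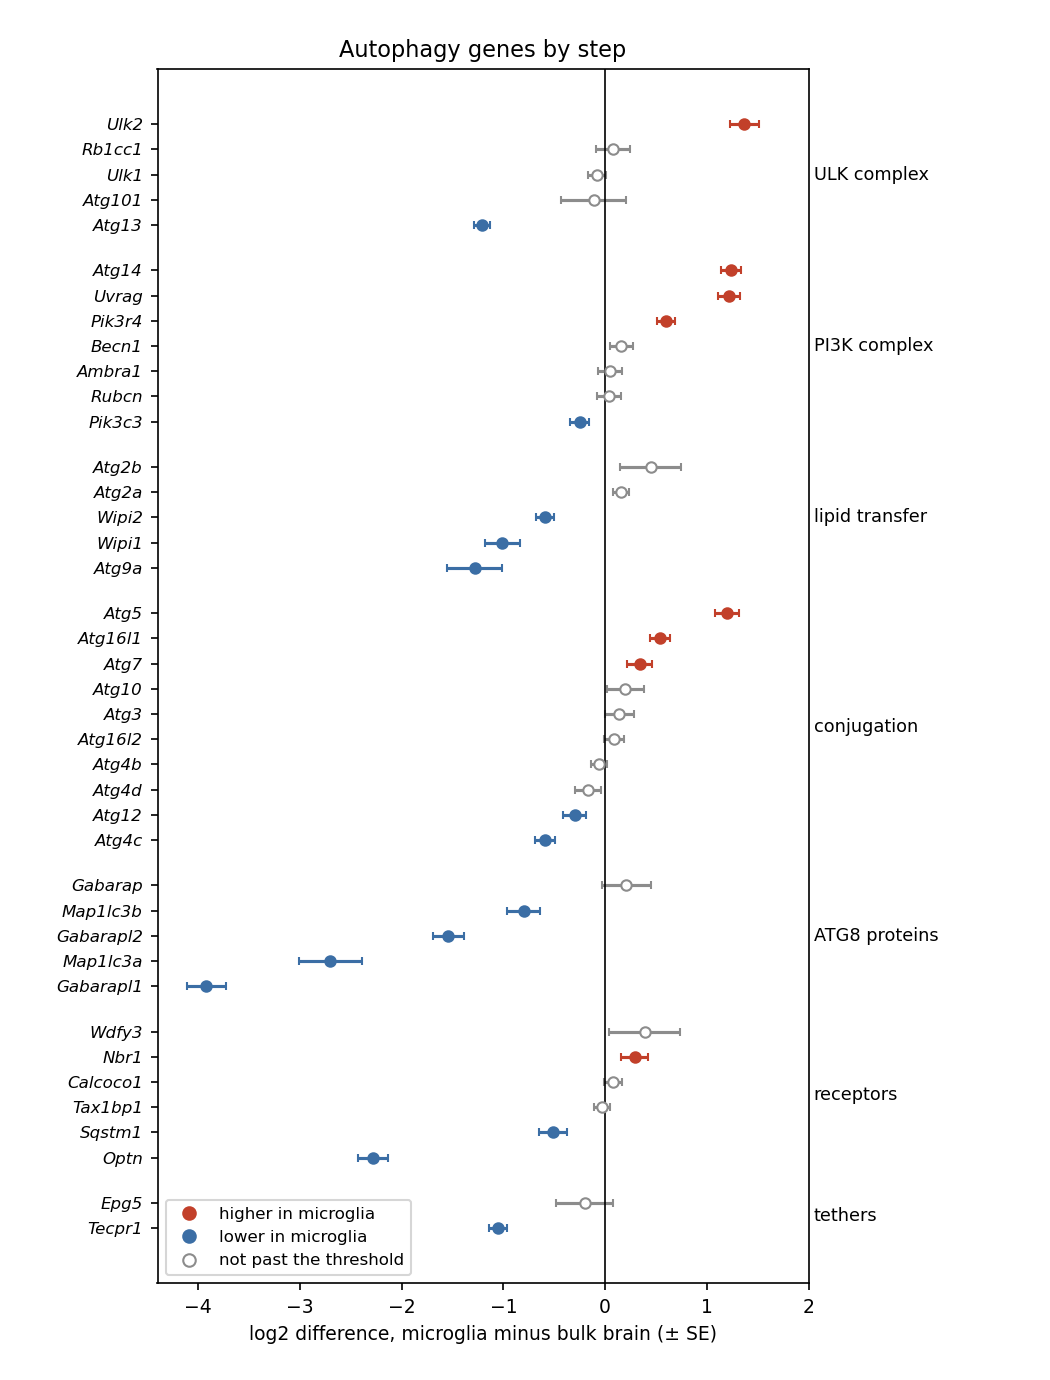
The log2 difference of each of the 40 genes between microglia and bulk brain is plotted on the horizontal axis by step, with bars of ± 1 SE (n = 5 libraries each). Filled points passed the threshold (8 higher in red, 14 lower in blue) and open points did not, and the points farthest from 0 are Gabarapl1 at -3.92 and Map1lc3a at -2.70.

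In the ULK complex, which starts autophagy, the kinase gene Ulk2 was higher in microglia, the adaptor gene Atg13 was lower, and 3 of the 5 genes did not pass the threshold. Ulk2 (ENSMUSG00000004798, chromosome 11, 61666475 to 61745899, minus strand, in the build GRCm39 of the table, as for all genes below) stood at 276, 313, 300.1, 309 and 283 CPM in microglia replicates 1 to 5, against 99.1, 79.7, 133, 129 and 133 CPM in bulk brain replicates 1 to 5. Every microglia library was above every bulk brain library, with a log2 difference of 1.37 ± 0.14 (SE), or 2.58-fold (edgeR adjusted p = 3.1e-06). The Ulk2 difference was 1.01 against bulk brain replicates 3 to 5 alone and 1.64 against replicates 1 and 2 alone. Atg13, which links the kinase to its scaffold, stood at 40.3, 40.6, 40.9, 40.6 and 45.7 CPM in microglia and at 94.7, 105, 96.4, 94.3 and 91.7 CPM in bulk brain. All 5 microglia libraries lay below all 5 of bulk brain, a log2 difference of -1.21 ± 0.08 (edgeR adjusted p = 5.2e-08). Ulk1, the other kinase gene, averaged 85.8 ± 4.17 CPM in microglia, against 90.8 ± 8.81 CPM in bulk brain (SD, n = 5 each) and did not pass the threshold, although without bulk brain replicate 2 its log2 difference was -0.28 (edgeR adjusted p = 0.0039) and against replicates 3 to 5 alone -0.32 (adjusted p = 6.2e-05). Ulk1 also passed with median-of-ratios size factors (-0.25, edgeR adjusted p = 0.035) and with library size alone (-0.27, adjusted p = 0.016). The scaffold gene Rb1cc1, which encodes FIP200, averaged 128 ± 6.54 CPM in microglia, against 121 ± 32.0 CPM in bulk brain, and its direction depended on the bulk brain libraries: -0.33 against replicates 3 to 5 alone (edgeR adjusted p = 3.8e-05) and 0.47 against replicates 1 and 2 alone (adjusted p = 0.0028). Atg101, which stabilises Atg13, ranged from 20.6 to 24.6 CPM in microglia, against 28.8 and 46.4 CPM in bulk brain replicates 1 and 2, with replicates 3 to 5 at 13.6 to 15.1 CPM. Its log2 difference was 0.45 against replicates 3 to 5 alone (edgeR adjusted p = 0.00057) and -0.85 against replicates 1 and 2 alone (adjusted p = 0.00044).

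The PI3K complex makes the lipid phosphatidylinositol 3-phosphate at the site where the membrane forms, and its subunits did not move together. Of the 7 genes, 3 were higher in microglia, 1 was lower and 3 did not pass the threshold. The subunits that define the complex's alternative forms were among the higher ones. Atg14, which directs the complex to autophagosome formation (ENSMUSG00000037526, chromosome 14, 47778350 to 47808106, minus strand), stood at 43.5, 47.2, 45.0, 41.5 and 43.1 CPM in microglia, against 20.6, 17.6, 16.9, 20.0 and 18.2 CPM in bulk brain. The groups were far apart, at 2.36-fold (log2 difference 1.24 ± 0.10, edgeR adjusted p = 2e-07). Uvrag, whose product takes Atg14's place in the form of the complex that acts on endosomes, averaged 80.1 ± 4.71 CPM in microglia, against 34.4 ± 4.50 CPM in bulk brain, 2.33-fold higher (edgeR adjusted p = 6.1e-07). Pik3r4, the regulatory subunit shared by both forms, averaged 66.6 ± 1.90 CPM in microglia, against 43.8 ± 4.76 CPM in bulk brain (log2 difference 0.60 ± 0.09, edgeR adjusted p = 8.6e-05).

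The catalytic subunit gene Pik3c3 was slightly lower in microglia, in contrast to its regulatory partners. It stood at 50.9, 52.7, 43.6, 49.8 and 53.4 CPM in microglia, against 61.5, 62.4, 60.2, 53.9 and 60.0 CPM in bulk brain, so that the highest microglia library was just under the lowest bulk brain library. The log2 difference was -0.25 ± 0.09 (edgeR adjusted p = 0.021), and the call was lost without microglia replicate 3 (-0.19, adjusted p = 0.072) or without microglia replicate 4 (-0.23, adjusted p = 0.054). Becn1, the scaffold of both forms, averaged 65.6 ± 3.38 CPM in microglia, against 58.9 ± 8.18 CPM in bulk brain. Ambra1, which regulates Beclin 1, averaged 68.8 ± 4.46 and 66.3 ± 11.4 CPM in microglia and bulk brain. Rubcn, whose product restrains the Uvrag form and is needed for LC3-associated phagocytosis, averaged 91.0 ± 3.61 CPM in microglia, against 88.5 ± 14.4 CPM in bulk brain. None of these 3 passed the threshold with all libraries (edgeR adjusted p of 0.20, 0.70 and 0.76). Ambra1 and Rubcn passed in opposite directions by the bulk brain libraries used: both were at -0.27 against replicates 3 to 5 alone (adjusted p = 0.0016 and 0.00014), and at 0.25 and 0.23 against replicates 1 and 2 alone (adjusted p = 0.045 and 0.046). Becn1 passed when coding genes alone were fitted (0.27, adjusted p = 0.026). Rubcn overlaps Fyttd1 on the opposite strand, which averaged 121 CPM in microglia, against 99.2 CPM in bulk brain, and reads of the pair may be mixed since no source used here gives the strand setting of the counting.

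The lipid transfer step, which supplies membrane to the growing autophagosome, had 3 of its 5 genes lower in microglia and none higher. Among all genes tested, 43.9% were lower and 37.2% higher. Atg9a, which encodes a lipid scramblase carried on small vesicles, stood at 24.9, 23.9, 25.4, 22.0 and 17.8 CPM in microglia and at 45.1, 22.9, 71.0, 68.1 and 70.2 CPM in bulk brain. The groups overlapped through bulk brain replicate 2 alone, and the log2 difference was -1.28 ± 0.27 (edgeR adjusted p = 0.00095). It was -1.77 against bulk brain replicates 3 to 5 and -0.67 against replicates 1 and 2 (adjusted p = 0.025), so that its size rests on which bulk brain libraries are used. Atg9a overlaps Ankzf1 on the opposite strand, at 64.7 CPM in microglia, against 20.6 CPM in bulk brain. The WIPI proteins bind the lipid made by the PI3K complex. Wipi1 averaged 11.5 ± 1.74 CPM in microglia, against 23.2 ± 4.88 CPM in bulk brain (log2 difference -1.01 ± 0.17, edgeR adjusted p = 0.00018). Wipi2, which recruits Atg16l1, averaged 84.1 ± 4.73 CPM in microglia, against 127 ± 9.51 CPM in bulk brain (-0.59 ± 0.09, edgeR adjusted p = 4.4e-05).

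The lipid bridge genes Atg2a and Atg2b did not pass the threshold. Atg2a averaged 64.9 ± 1.61 CPM in microglia, against 58.1 ± 4.26 CPM in bulk brain, with no overlap between the groups but an edgeR adjusted p of 0.093, which was 0.02 with upper-quartile scaling (0.23) and 0.0076 with coding genes alone (0.28). Atg2b ranged from 78.8 to 92.1 CPM in microglia, against 39.0 and 25.2 CPM in bulk brain replicates 1 and 2, with replicates 3 to 5 at 80.2 to 86.7 CPM. Its log2 difference was 1.33 against bulk brain replicates 1 and 2 alone (edgeR adjusted p = 4e-05) and -0.11 against replicates 3 to 5 alone (adjusted p = 0.096).

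Conjugation attaches ATG8 proteins to lipid. Among its 10 genes, 3 were higher in microglia, 2 were lower and 5 did not pass the threshold. In the Atg12-Atg5-Atg16l1 complex, which sets where ATG8 is attached, Atg5 and Atg16l1 were higher. Atg12 was slightly lower, by a call that was easily lost. Atg5 (ENSMUSG00000038160, chromosome 10, 44144354 to 44240287, plus strand) stood at 51.1, 60.2, 58.4, 61.9 and 48.8 CPM in microglia, against 26.1, 29.5, 23.1, 21.2 and 22.2 CPM in bulk brain. All microglia libraries were above all bulk brain libraries, at 2.29-fold (log2 difference 1.20 ± 0.12, edgeR adjusted p = 2e-06). Atg16l1, which binds the complex to membrane, averaged 91.7 ± 3.25 CPM in microglia, against 63.1 ± 8.09 CPM in bulk brain (0.54 ± 0.10, edgeR adjusted p = 0.00032). Atg12, the ubiquitin-like protein joined to Atg5, was lower, at 53.0 ± 5.38 CPM in microglia, against 65.5 ± 6.90 CPM in bulk brain (-0.30 ± 0.11, edgeR adjusted p = 0.02). The Atg12 groups overlapped, with microglia up to 60.4 CPM and bulk brain down to 57.8 CPM. The Atg12 call was lost without microglia replicate 1 (-0.28, adjusted p = 0.052) or without microglia replicate 5 (-0.24, adjusted p = 0.067). It was also lost with upper-quartile scaling (-0.24, edgeR adjusted p = 0.062) and with coding genes alone (-0.19, adjusted p = 0.11).

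Atg7, the activating enzyme of both conjugation systems, averaged 30.7 ± 3.81 CPM in microglia, against 24.3 ± 2.71 CPM in bulk brain (log2 difference 0.34 ± 0.12, edgeR adjusted p = 0.024). That call was lost without microglia replicate 4 (0.29, adjusted p = 0.057) and without bulk brain replicate 1, 3, 4 or 5 (0.22, 0.20, 0.19 and 0.24, adjusted p of 0.14, 0.16, 0.18 and 0.10). Against bulk brain replicates 3 to 5 alone the Atg7 difference was 0.26 (edgeR adjusted p = 0.034). Against replicates 1 and 2 alone it was 0.14 and the call was lost (adjusted p = 0.36). The conjugating enzyme genes Atg3, which acts on ATG8 proteins, and Atg10, which acts on Atg12, had log2 differences of 0.14 and 0.20 and did not pass, although Atg3 was at 0.19 against bulk brain replicates 3 to 5 alone (edgeR adjusted p = 0.013). ATG4 proteases trim ATG8 proteins before conjugation and release them from membrane. Atg4c stood at 26.2, 30.3, 28.9, 27.4 and 31.3 CPM in microglia and at 42.1, 37.5, 46.3, 45.3 and 45.6 CPM in bulk brain. Microglia were lower in every library (log2 difference -0.59 ± 0.10, edgeR adjusted p = 0.00015). Atg4b averaged 62.1 ± 4.28 CPM in microglia, against 64.9 ± 3.43 CPM in bulk brain, and Atg4d averaged 22.0 ± 0.920 and 24.7 ± 4.23 CPM, neither past the threshold. Without bulk brain replicate 2 the Atg4b difference was -0.18 (edgeR adjusted p = 0.049), and without bulk brain replicate 3 or 4 the Atg4d difference was -0.33 or -0.32 (adjusted p = 0.026 and 0.034). Atg4b was at -0.17 against bulk brain replicates 3 to 5 alone (adjusted p = 0.028) and Atg4d at -0.49 against replicates 1 and 2 alone (adjusted p = 0.0018). With median-of-ratios size factors both passed, at -0.23 and -0.33 (adjusted p = 0.023 and 0.021). Atg16l2, a relative of Atg16l1, averaged 20.0 ± 1.17 CPM in microglia, against 18.8 ± 1.46 CPM in bulk brain. It overlaps Fchsd2 on the opposite strand, which averaged 316 CPM in microglia, against 52.3 CPM in bulk brain, so that its value is uncertain. In all, 10 of the 40 genes overlap an opposite-strand gene of at least 5 CPM in either group and share this doubt. Overlap was judged by the start and end of each gene only, and whether exons overlap was not examined. Beside those named with their partners in the text, Atg4d overlaps Kri1 (16.6 CPM in microglia and 10.5 in bulk brain), Atg2b overlaps Gskip (20.2 and 36.9), and Atg4b overlaps Thap4 (12.6 CPM or less in both). Uvrag, Rb1cc1 and Wdfy3 overlap genes of 5.87 CPM or less in both groups.

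Transcription factors of the MiT/TFE family, such as TFEB, bind DNA with the core letters CACGTG and are known to act on autophagy and lysosome genes, so the members' promoters were searched for it. RefSeq promoter windows of build GRCm38 were found for 32 of the 40 genes, some with more than 1 window. A window may lie at a start inside the gene, and which starts are used in these samples was not tested. In the 250 bases before the transcription start, 4 of 36 windows (11.1%), of 4 genes, held CACGTG, against 6.02% of the 32851 windows of all genes. The motif reads the same on both strands. Its extended form TCACGTGA, which contains CACGTG, was in 1 window of the members (2.78%), of Atg3, and in 0.785% of all. The 5 places are shown on the strand of the gene, with the core in capitals. Atg5 was higher in microglia, as was Atg7 with the limits on its call given above, while Rubcn and Atg3 did not pass the threshold. A match describes letters, not binding.
Atg5, chr10:44268313-44268338, plus strand, 14 bases before the start: cggagcgcttgcCACGTGgtcttggt
Atg7, chr6:114670952-114670981, plus strand, 132 bases before the start: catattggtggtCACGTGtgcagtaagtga
Rubcn, chr16:32868437-32868466, minus strand, 88 bases before the start: cgcctagcacatCACGTGtacccaggttag
Atg3, chr16:45158723-45158752, plus strand, 94 bases before the start: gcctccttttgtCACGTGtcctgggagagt
Atg3, chr16:45158746-45158775, plus strand, 71 bases before the start: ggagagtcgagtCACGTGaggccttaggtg

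The ATG8 family held the 2 largest differences among the 40 genes, in Gabarapl1 and Map1lc3a. Mammals have an LC3 branch (here Map1lc3a and Map1lc3b) and a GABARAP branch (Gabarap, Gabarapl1 and Gabarapl2), whose proteins share the role of binding cargo receptors and membrane-tethering proteins. Of the 5 genes, 4 were lower in microglia (80.0%, against 43.9% of all genes tested) and Gabarap did not pass the threshold. Gabarapl1 (ENSMUSG00000030161, chromosome 6, 129510123 to 129519309, plus strand) stood at 23.9, 29.5, 24.9, 29.0 and 26.5 CPM in microglia, against 453, 579, 323, 326 and 345 CPM in bulk brain. The lowest bulk brain library was over the highest microglia library by a wide margin, and microglia held 6.62% of the bulk brain level (log2 difference -3.92 ± 0.19, 15.1-fold lower, edgeR adjusted p = 2.4e-09). Map1lc3a (ENSMUSG00000027602, chromosome 2, 155118217 to 155119993, plus strand) stood at 21.8, 21.0, 19.8, 18.6 and 21.2 CPM in microglia, against 159, 254, 86.5, 82.7 and 85.6 CPM in bulk brain. Bulk brain replicates 1 and 2 were the highest, and the other 3 were still far above every microglia library (log2 difference -2.70 ± 0.31, edgeR adjusted p = 7.1e-06). It was -2.21 against replicates 3 to 5 alone and -3.40 against replicates 1 and 2 alone, so that its size depends on the libraries used. Gabarapl2 (chromosome 8, 112667335 to 112680244, plus strand) stood at 41.0, 44.6, 46.0, 44.5 and 39.8 CPM in microglia and at 153, 163, 114, 104 and 96.4 CPM in bulk brain. The groups were separate, at 34.3% of the bulk brain level (log2 difference -1.54 ± 0.15, edgeR adjusted p = 1.8e-06).

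Map1lc3b, which encodes LC3B, a widely used marker of autophagosomes (chromosome 8, 122317100 to 122325499, plus strand), stood at 118, 133, 139.6, 115 and 132 CPM in microglia and at 263, 299.9, 186, 184 and 176 CPM in bulk brain. It was lower in every microglia library, but by less than the 3 genes before it (log2 difference -0.80 ± 0.16, 1.74-fold lower, edgeR adjusted p = 0.00056). The Map1lc3b difference was -0.67 against bulk brain replicates 3 to 5 alone and -1.22 against replicates 1 and 2 alone. Map1lc3b overlaps Zcchc14 on the opposite strand, at 77.5 CPM in microglia, against 90.3 CPM in bulk brain. Gabarap (ENSMUSG00000018567, chromosome 11, 69881969 to 69885777, plus strand) stood at 127, 131, 138, 135 and 131 CPM in microglia, against 136, 193, 82.4, 76.6 and 81.8 CPM in bulk brain. Bulk brain replicates 1 and 2 were at or above the microglia libraries and replicates 3 to 5 below them, and the log2 difference over all libraries was 0.21 ± 0.24 (edgeR adjusted p = 0.42). The Gabarap difference was 0.56 against bulk brain replicates 3 to 5 alone (adjusted p = 2.5e-07), -0.39 against replicates 1 and 2 alone (adjusted p = 0.0055) and 0.35 without replicate 2 (adjusted p = 0.046), so its direction depends on the bulk brain libraries used. How the counting treated reads that match near-identical copies was not stated in the sources used here, which leaves the ATG8 genes uncertain to that degree.

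**Figure D2:**
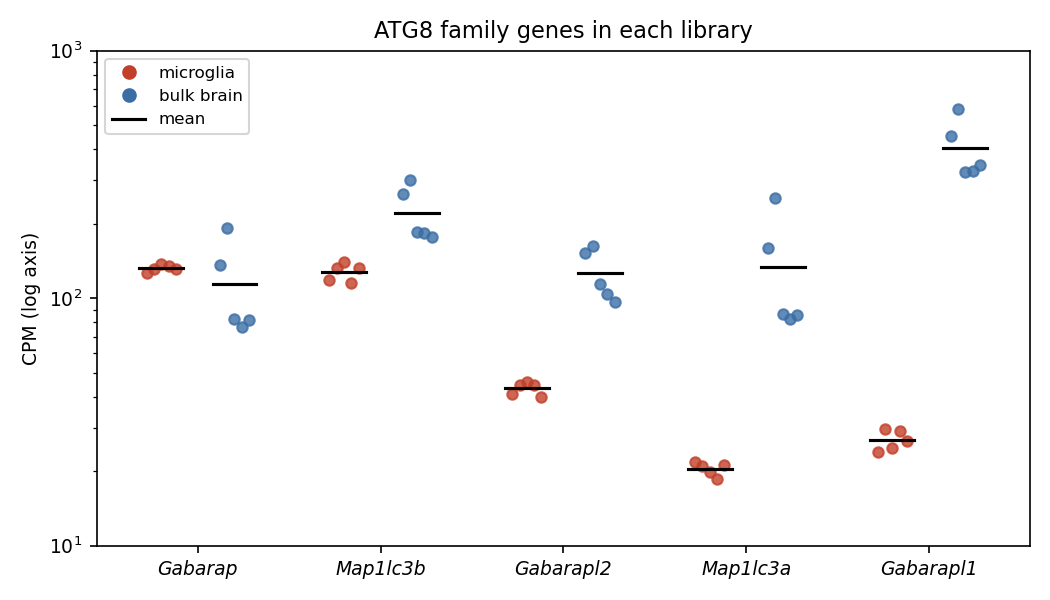
The level of each ATG8 gene is plotted in CPM on a log axis, with 1 point per library (microglia in red, left, and bulk brain in blue, right, n = 5 each) and a black line at the mean. Gabarapl1 lies at 23.9 to 29.5 CPM in microglia against 323 to 579 CPM in bulk brain, while the Gabarap points of the groups interleave.

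Compared per kilobase of gene length, the family had a different make-up in the groups. Gabarap took 52.0% ± 0.95 (SD, n = 5) of the family's summed level in microglia, against 13.2% ± 1.01 (SD, n = 5) in bulk brain. Gabarapl1 took 9.65% ± 0.82 in microglia and 44.7% ± 3.54 in bulk brain, and was the highest of the 5 genes in every bulk brain library. Map1lc3a took 12.6% ± 1.01 and 23.4% ± 4.18 in microglia and bulk brain, Gabarapl2 13.5% ± 0.584 and 12.1% ± 1.53, and Map1lc3b 12.3% ± 0.809 and 6.58% ± 0.624. In microglia Gabarap stood alone at 71.6 ± 2.30 CPM per kilobase, and the other 4 lay close together, from 13.3 ± 1.21 (Gabarapl1) to 18.6 ± 1.14 CPM per kilobase (Gabarapl2). In bulk brain the order was Gabarapl1 (201 ± 55.1 CPM per kilobase), Map1lc3a (113 ± 63.0), Gabarap (61.8 ± 27.3), Gabarapl2 (54.2 ± 13) and Map1lc3b (29.5 ± 7.47), with Gabarap and Gabarapl2 within their spread. The summed level of the family was 138 ± 3.72 CPM per kilobase in microglia and 459.9 ± 165 in bulk brain, 30.0% of the bulk brain level. That percent depends on the bulk brain libraries. The sum was 535 and 717 CPM per kilobase in replicates 1 and 2 and 343 to 353 in replicates 3 to 5, against 133 to 142 in microglia. By percentile among all genes tested, Gabarap stood at 97.4 in microglia and 97.0 in bulk brain, and Gabarapl1 at 80.0 in microglia and 99.5 in bulk brain.

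The share of Map1lc3b depended on the length used, because the table gives it 7517 bases and its longest protein-coding transcript in GENCODE vM21 has 2633. With such transcript lengths, a choice made after seeing the data, Map1lc3b took 23.6% ± 1.36 of the family in microglia and 14.7% ± 1.24 in bulk brain. Gabarap then took 47.7% ± 1.06 in microglia and 14.0% ± 1.23 in bulk brain, and Gabarapl1 took 7.18% ± 0.642 and 38.7% ± 2.78. The summed level of the family in microglia was then 35.0% of the bulk brain level. Map1lc3b was thus the lowest of the family in bulk brain or near Gabarap and Gabarapl2, by the length chosen, while Gabarap led in microglia and Gabarapl1 in bulk brain with either length.

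**Figure D3:**
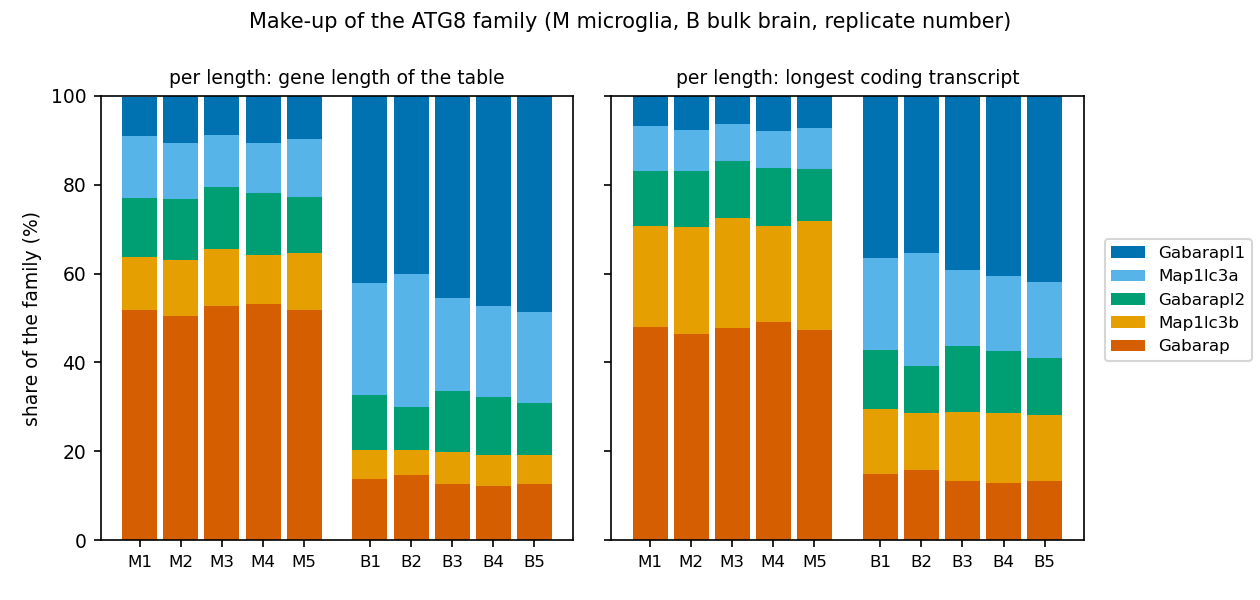
Each bar is 1 library (M, microglia; B, bulk brain; number, replicate) and shows the percent of the summed ATG8 level per kilobase held by each of the 5 genes, with the gene length of the table on the left and the longest coding transcript on the right. Gabarap takes 52.0% in microglia and 13.2% in bulk brain on average in the left panel, and 47.7% and 14.0% in the right one.

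Cargo receptors bind ubiquitin-tagged or otherwise marked cargo and ATG8 proteins at once. Of the 6 receptor genes, 2 were lower in microglia, 1 was higher and the other 3 failed to pass. Over all genes tested the shares were 43.9% lower and 37.2% higher. Optn, whose product optineurin recognises damaged mitochondria and bacteria (ENSMUSG00000026672, chromosome 2, 5025453 to 5068862, minus strand), stood at 4.81, 4.23, 5.20, 4.58 and 3.21 CPM in microglia and at 24.3, 19.5, 20.1, 20.3 and 22.5 CPM in bulk brain. It was far lower in every microglia library, at 20.6% of the bulk brain level (log2 difference -2.28 ± 0.15, edgeR adjusted p = 5.6e-08), and per kilobase it was the lowest of the 40 genes in microglia. Sqstm1, which encodes the receptor p62, averaged 293 ± 16.5 CPM in microglia, against 417 ± 96.5 CPM in bulk brain (-0.51 ± 0.14, edgeR adjusted p = 0.0061). The Sqstm1 difference was -0.41 against bulk brain replicates 3 to 5 alone and -0.9 against replicates 1 and 2 alone. Although lower than in bulk brain, Sqstm1 stood at the 97.9th percentile of tested genes per kilobase in microglia and at the 98.9th in bulk brain.

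Nbr1, a receptor that works with p62, stood at 220.2, 232, 226, 226 and 210.5 CPM in microglia and at 167, 131, 209, 202 and 199 CPM in bulk brain. The groups did not overlap, but bulk brain replicates 3 to 5 lay close under the microglia libraries (log2 difference 0.29 ± 0.13, edgeR adjusted p = 0.047). The Nbr1 call was lost without each of microglia replicates 1 to 4 (0.29 to 0.31, adjusted p of 0.064 to 0.076) and without any of the 5 bulk brain libraries (0.14, 0.06, 0.23, 0.22 and 0.21 without replicates 1 to 5). Against bulk brain replicates 3 to 5 alone its difference was -0.02 (adjusted p = 0.59). Tax1bp1, a receptor for ubiquitin-tagged aggregates, averaged 162 ± 14.1 CPM in microglia, against 166 ± 2.48 CPM in bulk brain and did not pass, and without bulk brain replicate 2 its difference was -0.17 (edgeR adjusted p = 0.049), and against replicates 3 to 5 alone -0.19 (adjusted p = 0.0092). Tax1bp1 also passed with median-of-ratios size factors (-0.2, edgeR adjusted p = 0.039) and with library size alone (-0.22, adjusted p = 0.024). Calcoco1, a receptor for endoplasmic reticulum, averaged 64.9 ± 4.71 CPM in microglia, against 61.5 ± 3.71 CPM in bulk brain. Wdfy3, a scaffold protein for the clearance of aggregates, ranged from 343 to 395 CPM in microglia, against 134 and 102 CPM in bulk brain replicates 1 and 2, with replicates 3 to 5 at 386 to 405 CPM. Its log2 difference was 1.57 against bulk brain replicates 1 and 2 alone (edgeR adjusted p = 1e-06) and -0.24 against replicates 3 to 5 alone (adjusted p = 0.00061), so no direction can be given.

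Of the tethers, which bring the autophagosome to the lysosome, Tecpr1 was lower and Epg5 did not pass. Tecpr1 stood at 64.3, 73.6, 71.3, 62.3 and 68.0 CPM in microglia, against 147, 151, 140.5, 132 and 133 CPM in bulk brain. All microglia libraries were at about the same level and well below bulk brain, 2.07-fold lower (log2 difference -1.05 ± 0.09, edgeR adjusted p = 2.8e-07). Epg5 ranged from 51.3 to 58.3 CPM in microglia, against 37.4 and 27.1 CPM in bulk brain replicates 1 and 2, with replicates 3 to 5 at 76.2 to 86.4 CPM. Its log2 difference was 0.65 against replicates 1 and 2 alone (edgeR adjusted p = 0.0016), -0.76 against replicates 3 to 5 alone (adjusted p = 4.1e-08) and -0.54 without replicate 2 (adjusted p = 0.028).

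Related genes of the same step were next compared as ratios within each library, where the scaling of the library cancels. Over 8 pairs, the ratio of counts per kilobase was compared on the log2 scale by an exact two-sided permutation test of 5 libraries against 5, which cannot give a p below 0.0079. For 5 pairs the groups did not overlap and p took that smallest value (0.013 adjusted over the 8 pairs). Gabarapl1 was at 0.166 to 0.207 of the Gabarap level in microglia and at 2.75 to 3.91 times it in bulk brain, a log2 difference between the groups of -4.20 (mean -2.43 ± 0.13 and 1.76 ± 0.22). The order of the 2 genes was thus opposite in the groups. Map1lc3a was at 0.905 to 1.18 times Map1lc3b in microglia and 2.86 to 5.38 times in bulk brain (difference -1.78). With the transcript lengths above, the same ratio was 0.336 to 0.438 in microglia, against 1.06 to 2.0 in bulk brain, so that the level of the ratio, but not the difference between the groups, depends on the length. Ulk1 was at 0.243 to 0.279 of the Ulk2 level in microglia and 0.66 to 0.887 in bulk brain (difference -1.47).

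The ratio of Gabarapl1 to Gabarapl2 was 0.627 to 0.77 in microglia, against 3.28 to 4.13 in bulk brain (difference -2.37). For Atg16l1 to Atg16l2 it was 3.54 to 4.56 in microglia, against 2.54 to 3.47 in bulk brain (difference 0.45), a pair that rests on the uncertain Atg16l2 count. The ratios of Wipi1 to Wipi2 (difference -0.40, exact permutation p = 0.11), Atg2a to Atg2b (-0.45, p = 0.35) and Atg4d to Atg4b (-0.09, p = 0.38) did not pass. The spread of the Atg2a to Atg2b ratio in bulk brain, 1.24 to 3.58, came from replicates 1 and 2, both at 2.54 or more, against 1.24 to 1.31 in replicates 3 to 5 and 1.23 to 1.40 in microglia.

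**Figure D4:**
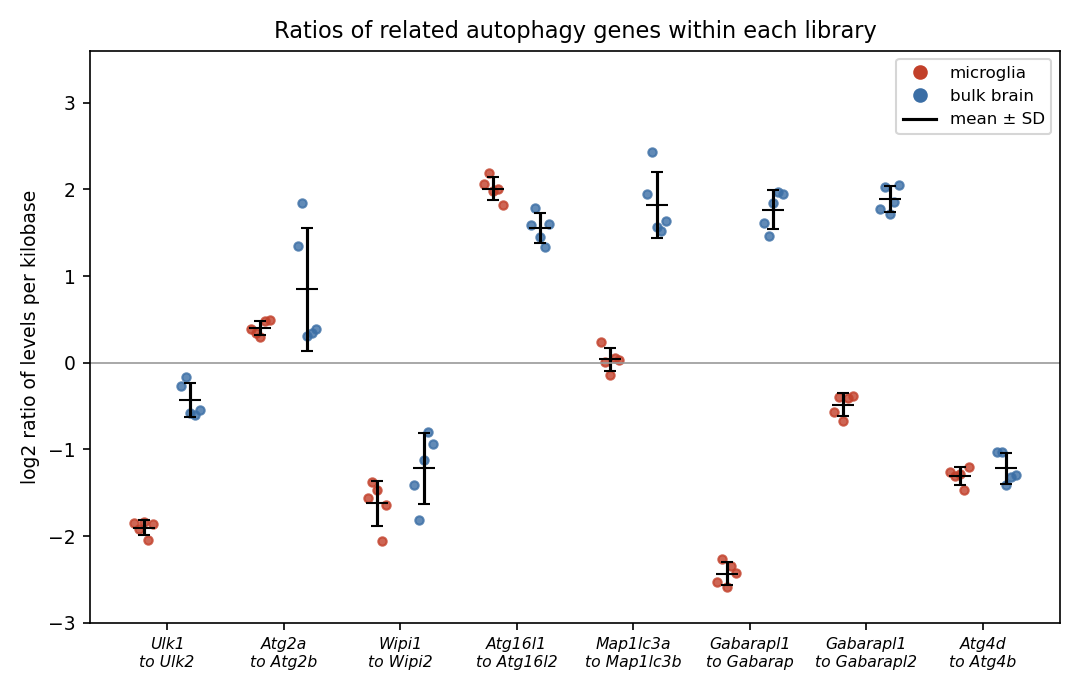
The log2 ratio of counts per kilobase of each pair is plotted by library (microglia in red, left, and bulk brain in blue, right), with the mean and ± 1 SD (n = 5 each). The groups are separate for 5 of the 8 pairs, and the Gabarapl1 to Gabarap ratio lies below 0 in microglia (mean -2.43) and above 0 in bulk brain (mean 1.76).

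Within bulk brain, the autophagy genes differed between replicates 1 and 2 on one side and replicates 3 to 5 on the other, and the difference tended to follow gene length. Of the 40 genes, 6 were over 1.5-fold higher and 5 over 1.5-fold lower in replicates 1 and 2, together 27.5%, against 41.5% of 12110 tested genes of at least 5 CPM. The Spearman correlation of this difference with gene length was -0.55 across the 40 genes and -0.71 across the 12110, given as a description since the genes share the same libraries. All 7 genes under 3000 bases were higher in replicates 1 and 2, by 1.25-fold to 2.62-fold, and among them were Map1lc3a (206 against 84.9 CPM), Gabarap (165 against 80.3 CPM) and Atg101 (37.6 against 14.4 CPM). Among the 10 genes of at least 9000 bases the ratio ran from 0.30 to 1.24 and 4 were higher in replicates 1 and 2, with Wdfy3 (118 against 394 CPM), Atg2b (32.1 against 83.6 CPM) and Epg5 (32.2 against 81.8 CPM) the lowest. The 4 ATG8 genes lower in microglia were lower against either set of bulk brain libraries. The source of this difference was not tested, and the labels give these libraries no separate batch.

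**Figure D5:**
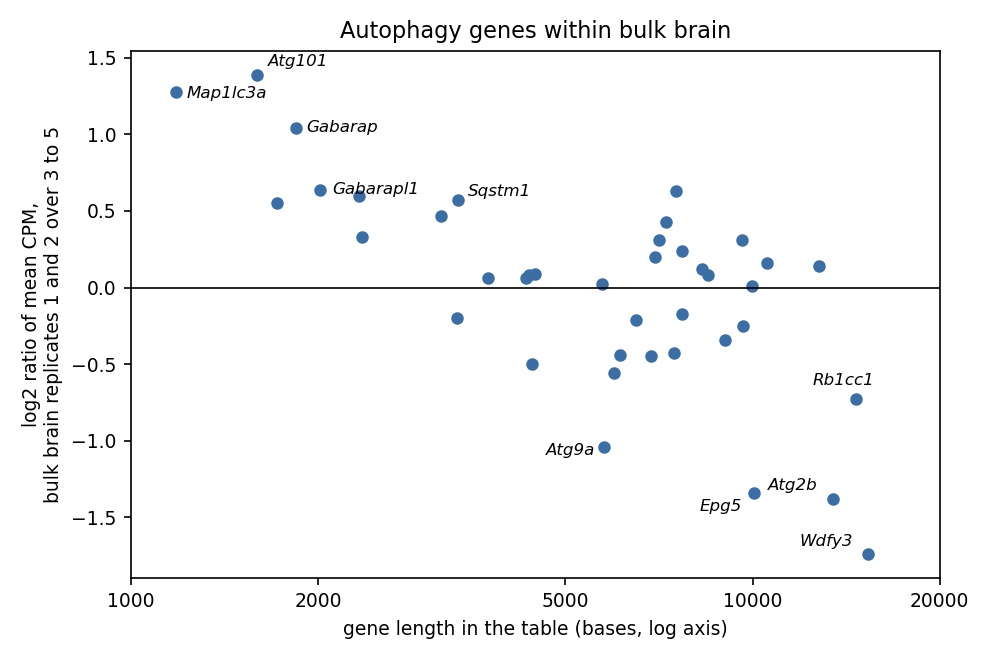
Each point is 1 of the 40 genes, with its length in the table on the horizontal axis (bases, log axis) and the log2 ratio of its mean CPM in bulk brain replicates 1 and 2 over replicates 3 to 5 on the vertical axis. All 7 genes under 3000 bases lie above 0, led by Atg101 (1.39), and of the 10 genes of at least 9000 bases 4 lie above 0 and the others below it, down to Wdfy3 (-1.74), with a Spearman correlation of -0.55 (n = 40).

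Beside the core machinery, a list of 42 other autophagy genes was read, drawn up with earlier results of these data known. Of these, 21 were higher in microglia (50.0%), 12 were lower (28.6%) and 9 did not pass the threshold. Among all genes tested, 37.2% were higher and 43.9% lower, the reference for the sublists below as well. The median log2 difference was 0.47, against 0.00 for the 40 genes and -0.14 for all genes. Because of how the list was drawn up, these shares and medians only describe it. Among 15 genes of fusion with the lysosome, 10 were higher and 3 lower (median 0.81). Vamp8, a SNARE protein of fusion with lysosomes, stood at 91.2, 94.5, 90.9, 88.1 and 85.6 CPM in microglia, against 12, 17.0, 5.82, 6.95 and 5.09 CPM in bulk brain. It was higher in every microglia library, 9.59-fold (log2 difference 3.26 ± 0.31, edgeR adjusted p = 1.3e-06), and the log2 difference was 3.76 against bulk brain replicates 3 to 5 alone and 2.56 against replicates 1 and 2 alone. Its partners Stx17 and Snap29 averaged 48.0 ± 0.872 and 45.4 ± 2.90 CPM in microglia, against 27.3 ± 8.90 and 23.7 ± 1.61 CPM in bulk brain, and were higher too (edgeR adjusted p = 0.0036 and 1.8e-06). Tecpr2 was the lowest of this group, at 28.4 ± 1.51 CPM in microglia, against 77.7 ± 24.5 CPM in bulk brain (log2 difference -1.45, edgeR adjusted p = 3.8e-05).

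Among 10 genes of initiation and membrane, 6 were higher and 2 lower (median 0.59). Rubcnl, which encodes the Rubicon-like protein Pacer that promotes autophagosome maturation, stood at 132, 135, 108, 115 and 136 CPM in microglia, against 1.78, 1.27, 1.46, 1.07 and 1.38 CPM in bulk brain. The groups were far apart, at 89.8-fold (log2 difference 6.49 ± 0.16, edgeR adjusted p = 1.7e-11). Bcl2, which binds Beclin 1 and blocks autophagy and cell death, averaged 6.78 ± 1.51 CPM in microglia, against 21.1 ± 5.42 CPM in bulk brain (-1.64, edgeR adjusted p = 2.9e-05). Among 17 genes of selective autophagy, 5 were higher and 7 lower (median 0.08). The ubiquitin ligase gene Cbl averaged 623 ± 25.7 CPM in microglia, against 90.0 ± 44.5 CPM in bulk brain (2.79, edgeR adjusted p = 1.2e-05), with a log2 difference of 2.2 against bulk brain replicates 3 to 5 alone and 3.80 against replicates 1 and 2 alone. Pink1, the kinase that marks damaged mitochondria for removal, stood at 58.7, 68.9, 57.1, 59.5 and 57.3 CPM in microglia, against 417, 502, 278, 273 and 275 CPM in bulk brain. It was lower in every microglia library, as was Optn above (log2 difference -2.53 ± 0.19, edgeR adjusted p = 1.3e-07).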

How the data were processed

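Poly-A RNA libraries, primed with random hexamers per the labels' protocols, were made from 5 samples of sorted microglia and 5 of bulk brain. A single table was deposited by the authors, holding raw counts for each gene without normalization, with symbols, coordinates and gene lengths per the file headers. Its 10 value columns were all mapped to samples. The tools, per the submitters' processing notes, were CASAVA, HISAT2 2.2.1 and featureCounts 2.0 and the build was GRCm39 (mm39), and their roles and order are not stated. The strand setting, the annotation release and the treatment of reads with several matches were not given in the sources used here.

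Genes were filtered with edgeR's filterByExpr by group, TMM-scaled and tested by quasi-likelihood in edgeR 4.0.16 (R 4.3.3, limma 3.58.1), with no term but group, all 10 libraries in the fit, and Benjamini-Hochberg adjustment over all 18969 genes at a threshold of 0.05. The threshold in the text is this one. CPM were computed from the counts and TMM-scaled totals, and levels per kilobase used the table's gene length. SEs were obtained from each log2 difference and its F statistic (size over the root of F). Ratios of pairs used counts plus 0.5. Promoter windows were from RefSeq (GRCm38), and only the bases before the start were searched. Python 3.11.15, numpy 2.4.6, pandas 2.3.3 and matplotlib 3.10.9 were used for levels, ratios and plots.

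The members, the steps, the 42 other genes and the marker lists were chosen with earlier results of these data known. Rubcn was placed with the PI3K complex and Wdfy3 with the receptors, and Epg5 and Tecpr1, which fall in none of the 6 steps, were set apart as tethers. By rule, values of every library were given for the ATG8 genes and, in each other step, for the largest rise and the largest fall, and members not past the threshold were given as ranges or means. In the other list, the largest rise and fall of each sublist were named, and Stx17 and Snap29 were named after their values were seen. Alternatives were other scalings, filters and tools (DESeq2 1.42.0, limma-voom), the replicate number as a block, coding genes only, other pseudocounts, parts of the bulk brain libraries and leaving out each library.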

Additional observations from a re-analysis of the deposited data

Results flagged for a closer look

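In 3 of the 80 groups of 5 libraries (40 genes in each of microglia and bulk brain), 1 library stood apart from the other 4 by Dixon's criterion, which chance meets in about 1 of 20 groups. Atg13 stood at 45.7 CPM in microglia replicate 5, against 40.3 to 40.9 CPM in the other microglia libraries. Pik3c3 stood at 53.9 CPM in bulk brain replicate 4, against 60.0 to 62.4 CPM in the others. Atg4d stood at 23.6 CPM in microglia replicate 1, against 21.4 to 22.0 CPM in the others.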

How the results depend on the processing

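Of the 22 members past the threshold, 18 (6 higher and 12 lower) kept their direction and their call under all 21 alternatives. The exceptions were Pik3c3, whose call was lost under 5 alternatives (edgeR adjusted p up to 0.17), Atg7 (11, up to 0.36), Atg12 (4, up to 0.11) and Nbr1 (14, and a change of sign under 1 more, up to 0.59). Against bulk brain replicates 1 and 2 alone, the count of members higher was 13 (32.5%, against 37.1% of all genes in that fit). Without single libraries it ranged from 6 to 8. The count lower was 22 against bulk brain replicates 3 to 5 alone (55%, against 47.4% of all genes in that fit). It ranged from 13 to 18 without single libraries. Over all genes, the fits without single libraries gave 6677 to 7127 higher and 8575 to 9033 lower, of 19376 to 19674 tested. The cause of these shifts was not tested. Correlations of same-numbered libraries were -0.021 to 0.0101, and 0 of 5 correlated best with its own number. Those with other numbers ran from -0.0243 to 0.0228. With all of them near 0, this check cannot tell whether the replicate numbers pair the libraries. The replicate block gave 6 members higher and 13 lower, and over all 18969 genes 6858 higher and 8037 lower. The blocked ratio test flips the signs of 5 differences, so its smallest p is 0.062, and the ratios that passed without it did not pass with it, at -1.47 (Ulk1 to Ulk2), 0.45 (Atg16l1 to Atg16l2), -1.78 (Map1lc3a to Map1lc3b), -4.20 (Gabarapl1 to Gabarap) and -2.37 (Gabarapl1 to Gabarapl2). Against bulk brain replicates 3 to 5 alone, the ratio difference was 0.05 for Atg2a to Atg2b, 0.04 for Atg4d to Atg4b and -0.67 for Wipi1 to Wipi2 (exact permutation, adjusted p = 0.024). The Wipi1 to Wipi2 difference ranged from -0.55 (without bulk brain replicate 2) to -0.30 without single libraries.

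Under the alternatives, sign changes touched 17 of the 18 not past the threshold, and Nbr1. With median-of-ratios size factors, and equally with DESeq2, the log2 differences were -0.10 for Rb1cc1, -0.01 for Becn1, -0.12 for Ambra1, -0.13 for Rubcn, -0.01 for Atg2a, -0.02 for Atg3, -0.07 for Atg16l2 and -0.09 for Calcoco1. In the same order they were -0.10, -0.03, -0.13, -0.14, -0.03, -0.04, -0.09 and -0.11 with library size alone and -0.09, -0.02, -0.12, -0.13, -0.01, -0.03, -0.08 and -0.10 with no low-count filter. Upper-quartile scaling gave 0.01 for Atg4b and 0.04 for Tax1bp1. Atg101 was at 0.05 with limma-voom and 0.07 with the replicate block. With coding genes only, Ulk1 was at 0.04, Atg101 at 0.01, Atg4b at 0.05 and Tax1bp1 at 0.08. Against bulk brain replicates 3 to 5 alone, values were 0.45 for Atg101, -0.33 for Rb1cc1, -0.27 for Ambra1 and Rubcn, -0.06 for Atg2a, -0.11 for Atg2b, -0.03 for Atg16l2, -0.02 for Nbr1, -0.07 for Calcoco1 and -0.24 for Wdfy3. Against replicates 1 and 2 alone they were -0.10 for Becn1, -0.19 for Atg3, -0.18 for Atg10, -0.03 for Atg16l2, -0.39 for Gabarap, -0.02 for Calcoco1 and 0.65 for Epg5. Without single libraries, the ranges that crossed 0 were -0.34 to 0.15 for Atg101, -0.19 to 0.12 for Rb1cc1, -0.01 to 0.19 for Becn1, -0.17 to 0.09 for Ambra1, -0.18 to 0.07 for Rubcn, -0.02 to 0.18 for Atg2a, -0.02 to 0.18 for Atg3, -0.05 to 0.13 for Atg16l2, -0.17 to 0.01 for Tax1bp1 and -0.08 to 0.12 for Calcoco1.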
